A study of Mus musculus with 531 samples.

Results

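Apoa1, Apoa4, Apob, Apom, Apoe, Ttr, Rbp4 and Afp encode secreted proteins that carry lipids, retinol or thyroid hormone. The 8 genes were followed here through single cells of mouse embryos, out of 22084 genes in the table of reads. They were chosen by their levels in these same cells, so their differences between lineages and stages are given as a description and not as evidence. Of 264 cells with RNA reads, 217 passed minimums of 50000 reads and 2000 detected genes: 75 cells of E4.5, 59 of E5.5 and 83 of E6.5. All embryos were of the C57Bl/6Babr strain, with no genetic change and no treatment named. By the labels these came from 5 embryos of E4.5, 1 of E5.5 (embryo 7) and 2 of E6.5. The study's methods count fewer embryos at E4.5 than the labels, which were used here. Trophectoderm had been removed by immunosurgery at E4.5, visceral endoderm and extraembryonic ectoderm had been pulled away from the epiblast at E5.5, and extraembryonic tissue had been taken off by hand at E6.5. The endoderm cells described below are therefore those left or carried over after dissection.

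The primitive endoderm forms beside the epiblast in the blastocyst and gives rise to the visceral endoderm, an absorbing and secreting layer that wraps the egg cylinder. Before a liver or a circulation exists, the visceral endoderm makes many of the proteins that the liver later secretes into plasma. Apolipoproteins form the protein shell of lipoprotein particles: Apob is the backbone of the large triglyceride-rich particles, Apoa1 and Apoa4 belong to high-density lipoproteins and chylomicrons, Apoe is a ligand of lipoprotein receptors that many tissues make, and Apom is a lipocalin that carries sphingosine-1-phosphate. Ttr carries thyroid hormone and binds Rbp4, the plasma carrier of retinol, and Afp is the albumin-like protein of the fetus.

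Cells were put into classes by clustering within each stage, without the 8 genes or most genes of the related lists, and a class was named from fixed markers. The list genes Gata4, Gata6, Sox17 and Foxa2 are also endoderm markers and were not left out of the clustering. At E4.5, 50 cells were endoderm-like and 25 epiblast-like. At E5.5, 7 cells were endoderm-like, 21 epiblast-like and 31 had no name. At E6.5, 14 cells were endoderm-like (12 from embryo 1 and 2 from embryo 2), 24 mesoderm-like (1 from embryo 1 and 23 from embryo 2) and 45 unnamed. Reads per cell ranged from 112008 to 8904445 with a median of 1133899. All 10 endoderm markers were read in the endoderm-like cells of each embryo, summing to 5748 to 8925 CPM (a gene's reads scaled to a total of 1000000 per cell or sum of cells) over the E4.5 embryos, 5785 CPM at E5.5 and 3363 to 4982 CPM at E6.5. At E5.5 the epiblast markers (9 genes) summed to 2764 CPM in the unnamed, 3247 CPM in the epiblast-like and 192 CPM in the endoderm-like cells. The epiblast marker Pou5f1 averaged 528 CPM in the endoderm-like cells at E4.5, 0.584 CPM at E5.5 and 234 CPM at E6.5, lowest in the E5.5 cells. Parietal endoderm markers (6 genes) summed to 3593 to 6521, 1008 and 436 to 1423 CPM at the 3 stages and anterior visceral endoderm markers (6 genes) to 172 to 678, 1195 and 151 to 343 CPM. Trophectoderm markers (8 genes) summed to 84.6 to 248, 92.5 and 87.8 to 168 CPM, mesoderm markers (8 genes) to 37.1 to 677, 576 and 93.4 to 134 CPM, and markers of maternal decidua and blood (8 genes) to 3.04 to 12.6, 0 and 2.42 to 89.5 CPM. The 7 endoderm-like cells of E5.5 all carried cell numbers that are multiples of 12, which 1 of the 31 unnamed and none of the 21 epiblast-like cells of that stage did. At E6.5 the same held for 8 of the 24 mesoderm-like cells and 0 of the 59 others. Whether collection position has a part in these values was not tested.

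The stretches before the gene starts are shown for 4 members, 3 whose windows held a searched motif and Apoe, the member read in almost all cells. The sequences are RefSeq windows on GRCm38.p6, matched by symbol for 7 of the 8 genes and written in the direction of transcription, with motif matches in capitals. The window of Afp is chr5:90490464-90490713 on the plus strand, that of Apob chr12:7977427-7977647 on the plus strand, that of Rbp4 chr19:38125322-38125571 on the minus strand and that of Apoe chr7:19699189-19699438 on the minus strand.
Afp: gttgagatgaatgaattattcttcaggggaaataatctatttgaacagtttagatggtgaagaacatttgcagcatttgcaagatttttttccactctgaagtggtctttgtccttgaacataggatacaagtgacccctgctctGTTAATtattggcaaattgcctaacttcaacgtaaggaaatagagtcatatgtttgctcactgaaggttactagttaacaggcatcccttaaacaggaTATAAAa
Apob: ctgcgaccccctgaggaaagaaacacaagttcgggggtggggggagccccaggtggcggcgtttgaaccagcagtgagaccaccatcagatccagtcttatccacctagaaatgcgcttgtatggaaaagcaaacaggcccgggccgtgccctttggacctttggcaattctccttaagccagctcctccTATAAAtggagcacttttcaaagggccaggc
Rbp4: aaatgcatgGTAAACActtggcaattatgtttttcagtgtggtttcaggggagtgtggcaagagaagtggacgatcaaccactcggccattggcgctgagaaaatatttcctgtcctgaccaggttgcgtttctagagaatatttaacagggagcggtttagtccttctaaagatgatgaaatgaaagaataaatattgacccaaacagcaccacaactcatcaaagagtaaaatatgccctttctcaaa
Apoe: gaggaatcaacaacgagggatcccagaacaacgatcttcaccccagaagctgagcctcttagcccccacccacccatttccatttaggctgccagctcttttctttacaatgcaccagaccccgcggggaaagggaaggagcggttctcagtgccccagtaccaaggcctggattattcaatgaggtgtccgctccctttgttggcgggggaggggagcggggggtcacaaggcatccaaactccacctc
The motifs were searched on both strands. The TATA box, TATAAA, began 30 bases before the GENCODE start of Afp and 31 bases before that of Apob, and 12.4% of 32851 windows of 250 bases held it. The HNF1 half-site, GTTAAT, lay 128 bases before the GENCODE start of Afp and was held by 6.43% of windows. The FOXA motif, TGTTTAC, lay on the opposite strand of Rbp4, where it reads GTAAACA, 281 bases before the GENCODE start, and 3.17% of windows held it. Windows were cut to the bases before the outer of the RefSeq and GENCODE starts, which left 221 bases for Apob, 200 for Apoa1, 102 for Apoa4 and 1 for Apom, so counts over the members' windows are not given. A match is a description of letters and not a bound site.

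Members and their relatives lie in clusters on the GRCm38 assembly. Apoa1 spans chr9:46228580-46230466 and Apoa4 chr9:46240696-46243459, both on the plus strand, with Apoc3 between them and Apoa5 just beyond. Apoe spans chr7:19696109-19699188 on the minus strand, next to Apoc1, Apoc4 and Apoc2. Afp spans chr5:90490737-90508907 on the plus strand, between Alb and Afm. Apob spans chr12:7977648-8016835, Apom chr17:35128997-35132050 and Rbp4 chr19:38116629-38125281, each apart from the others.

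At E4.5 the endoderm-like cells carried Apom, Ttr and Apoe, with few or no reads of the other 5 genes. Levels are means of log2(CPM + 1) over the cells of an embryo, then over embryos. Apom, the lipocalin of high-density lipoproteins, was at 6.02, 6.32, 4.5, 5.24 and 7.26 in the endoderm-like cells of embryos 1 to 5, and at 2.72, 1.32, 2.88, 1.58 and 3.68 in the epiblast-like cells of the same embryos. The mean difference was 3.43 ± 1.2 (SD, n = 5 embryos). Ttr, the thyroid hormone carrier, was at 4.63, 4.16, 5.84, 4.5 and 4.11 in the endoderm-like cells and at 0.89, 0, 0.65, 0.95 and 2.32 in the epiblast-like cells. For Ttr the mean difference was 3.68 ± 1.23 (SD, n = 5). Apom and Ttr were the members with a higher level in the endoderm-like cells of all 5 embryos, and so in both label prefixes of the stage (P1 for embryos 1 and 2, P2 for 3 to 5), as were 11.3% of 15471 genes.

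Apoe did not separate the lineages at E4.5. Its log2 level was 11.33, 10.39, 9.54, 10.11 and 10.67 in the endoderm-like cells and 9.81, 11.02, 10.67, 10.11 and 11.28 in the epiblast-like cells of embryos 1 to 5. The ranges overlapped almost entirely, and the difference was -0.17 ± 1.02 (SD, n = 5), higher in the endoderm-like cells of 2 embryos. Because of Apoe, the 8 genes together took a like share of reads in both classes, 0.107% to 0.304% in the endoderm-like and 0.118% to 0.254% in the epiblast-like cells of an embryo.

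The other 5 genes were rare at E4.5. Apoa4, an apolipoprotein of chylomicrons, had a read in 13 of 50 endoderm-like cells (26%, exact 95% binomial interval 14.6 to 40.3%) and in 0 of 25 epiblast-like cells, which allows a share of up to 12%. Such intervals and limits cover counting error only. With each cell thinned to 50000 reads, Apoa4 was read in 4 of 50. Apoa1 had a read in 5 of 50 endoderm-like and 4 of 25 epiblast-like cells, Apob in 4 and 1, and Afp in 1 and 1. The intervals of these shares overlapped between the classes. The highest Apob value, in 1 endoderm-like cell, was 265 CPM. Rbp4 had no read in any of the 75 cells, which allows up to 6% of the endoderm-like cells. The median depth was 1028345 reads in the endoderm-like cells and 791565 in the epiblast-like cells.

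**Figure D1:**
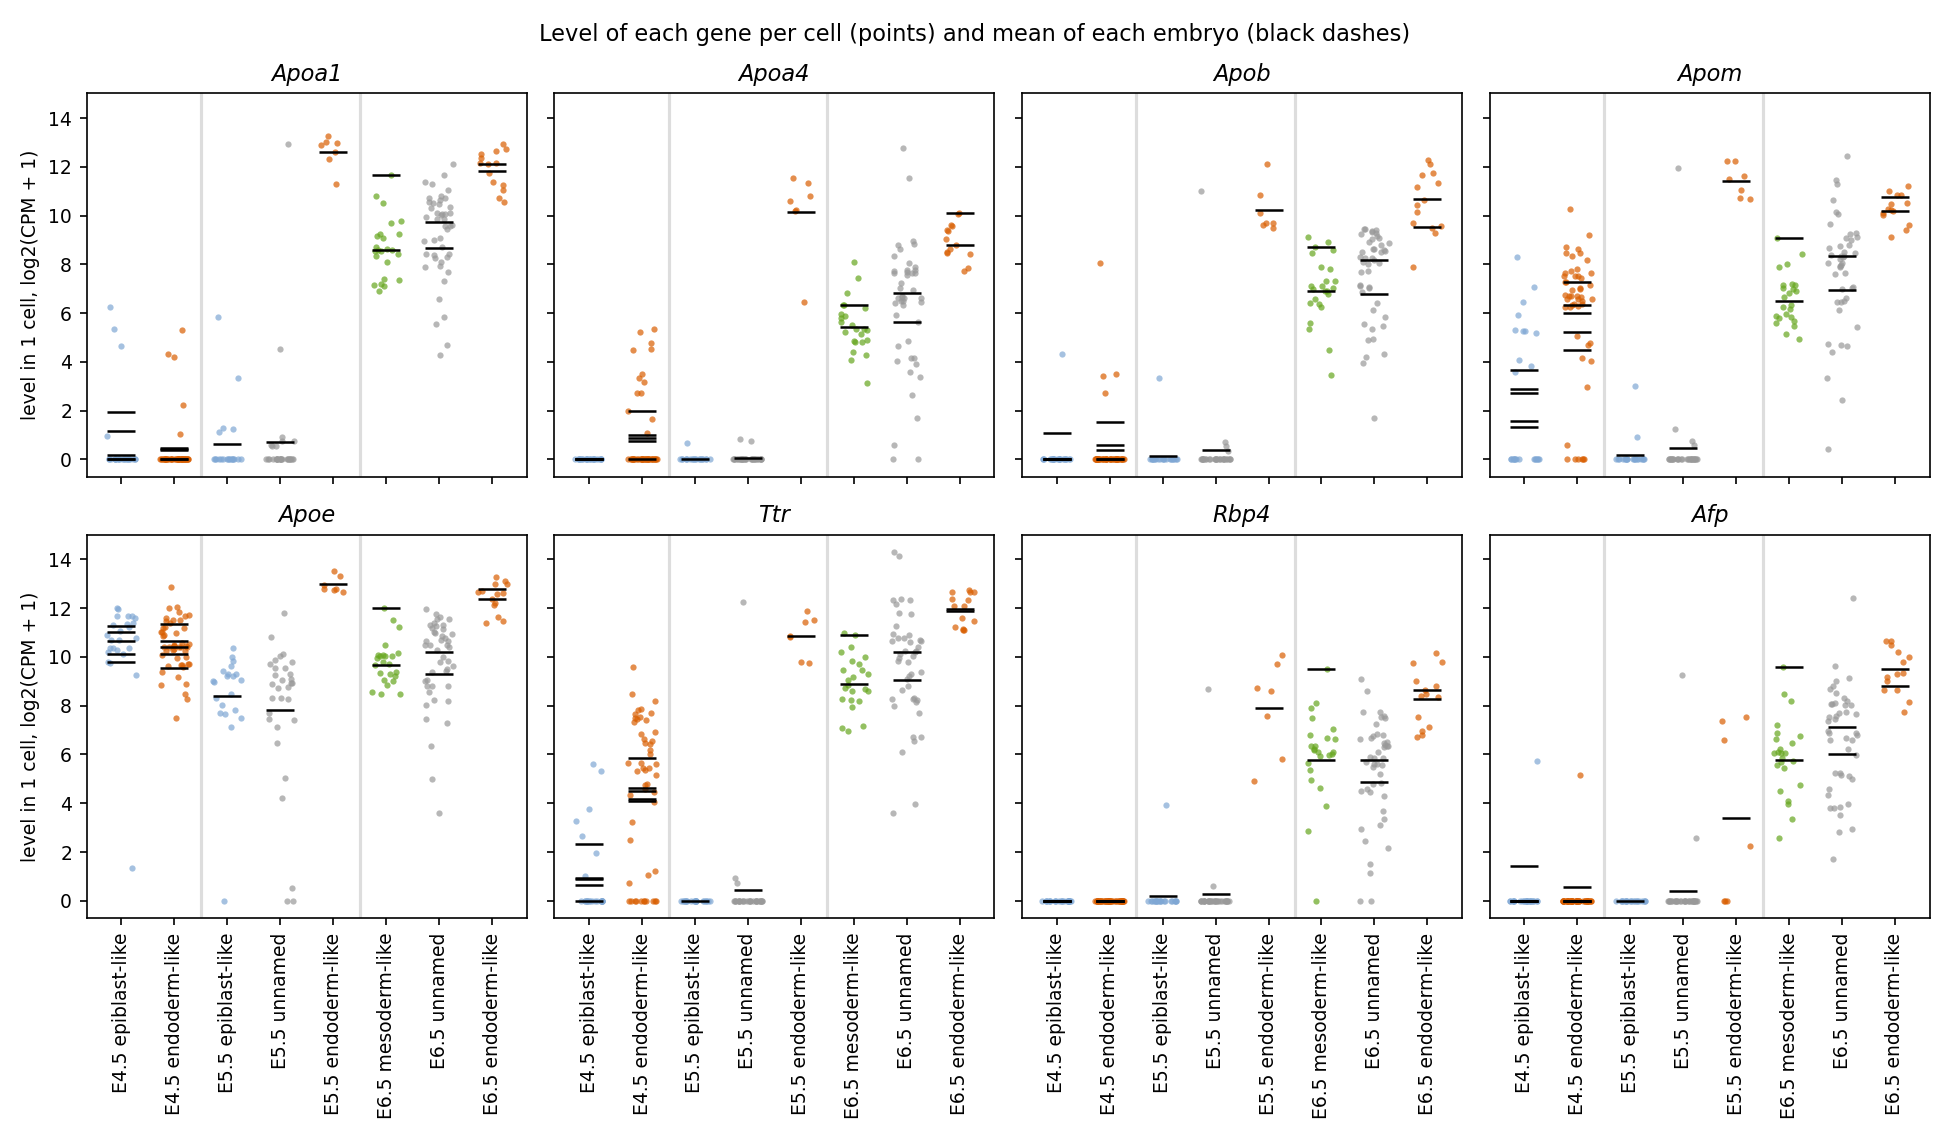
Level of each of the 8 genes, log2(CPM + 1) on the vertical axis, in each of the 217 cells (points) by stage and class, with the mean of each embryo as a black dash. At E4.5 only Apom and Ttr stand higher in the endoderm-like cells of all 5 embryos, at E5.5 the 7 endoderm-like cells stand above the rest, except for Afp, unread in 3 of them, 1 unnamed cell (cell 24) is also above the rest for all genes but Apoa4, and at E6.5 all classes carry the genes.

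At E5.5, 7 of the 8 genes were read in all 7 endoderm-like cells and, Apoe and 1 further cell apart, were near 0 elsewhere. In the endoderm-like cells the 8 genes took 2.41% of all reads, against 0.0531% in the 21 epiblast-like cells and 0.148% in the 31 unnamed cells, where cell 24, described below, held most of those reads. Apoa1, the main protein of high-density lipoproteins, ranged from 2523 CPM through a median of 7506 to 9758 CPM. Apoa4 ranged from 86.9 through 1548 to 2944 CPM, and Apob from 719 through 824 to 4445 CPM. All 7 cells were thus high in the 3 apolipoproteins that were rare at E4.5. Apom ranged from 1649 through 2931 to 4841 CPM, Apoe from 6453 through 7167 to 11658 CPM, and Ttr from 859 through 1854 to 3736 CPM. Rbp4, unread at E4.5, ranged from 28.8 through 384 to 1080 CPM.

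Afp was the exception at E5.5. It was read in 4 of the 7 endoderm-like cells (57.1%, exact 95% interval 18.4 to 90.1%), with a median of 3.80 CPM and a highest value of 186 CPM. Of the 7 cells, 3 passed 10 CPM and 3 had no read. The other 7 genes were all read in the cells with no Afp.

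One further E5.5 cell, cell 24, carried the genes without being named endoderm-like. It had 7743 CPM of Apoa1, 3953 CPM of Apom, 4871 CPM of Ttr and 615 CPM of Afp, and 23156 CPM of the 8 genes together, as much as the endoderm-like cells. It had no read of Apoa4 or Pou5f1, passed 10 CPM for 4 of the 10 endoderm markers, and held 2222 detected genes, near the minimum of 2000. Its number is also a multiple of 12. In the 51 other cells of the stage, 7 of the 8 genes averaged between 0.00145% and 0.151% of their mean CPM in the endoderm-like cells, and Apoe 5.99%. Apoe was read in 48 of those 51 cells, and its mean log2 level over all 52 was 8.06. Defining endoderm markers were as scarce there, between 0 and 0.371% of their endoderm-like means. The median depth was 1772155 reads in the endoderm-like and 1023487 in the epiblast-like cells.

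At E6.5 all 8 genes were read in each of the 14 endoderm-like cells, Afp now included. The genes took 2.07% of the reads of these cells in embryo 1 and 1.71% in embryo 2. Apoa1 was at a log2 level of 11.84 in embryo 1 and 12.10 in embryo 2, Apoa4 at 8.78 and 10.09, and Apob at 10.70 and 9.53. Apom was at 10.20 and 10.75, and Apoe at 12.38 and 12.78. Embryo 2 was higher for 4 of these 5 apolipoproteins and lower for Apob, but only 2 of its cells were endoderm-like. Ttr was at 11.95 and 11.89, Rbp4 at 8.27 and 8.66, and Afp at 9.52 and 8.82. Afp ranged from 215 through a median of 642 to 1609 CPM over the 14 cells, so that its lowest cell at E6.5 was above its highest endoderm-like cell at E5.5.

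**Figure D2:**
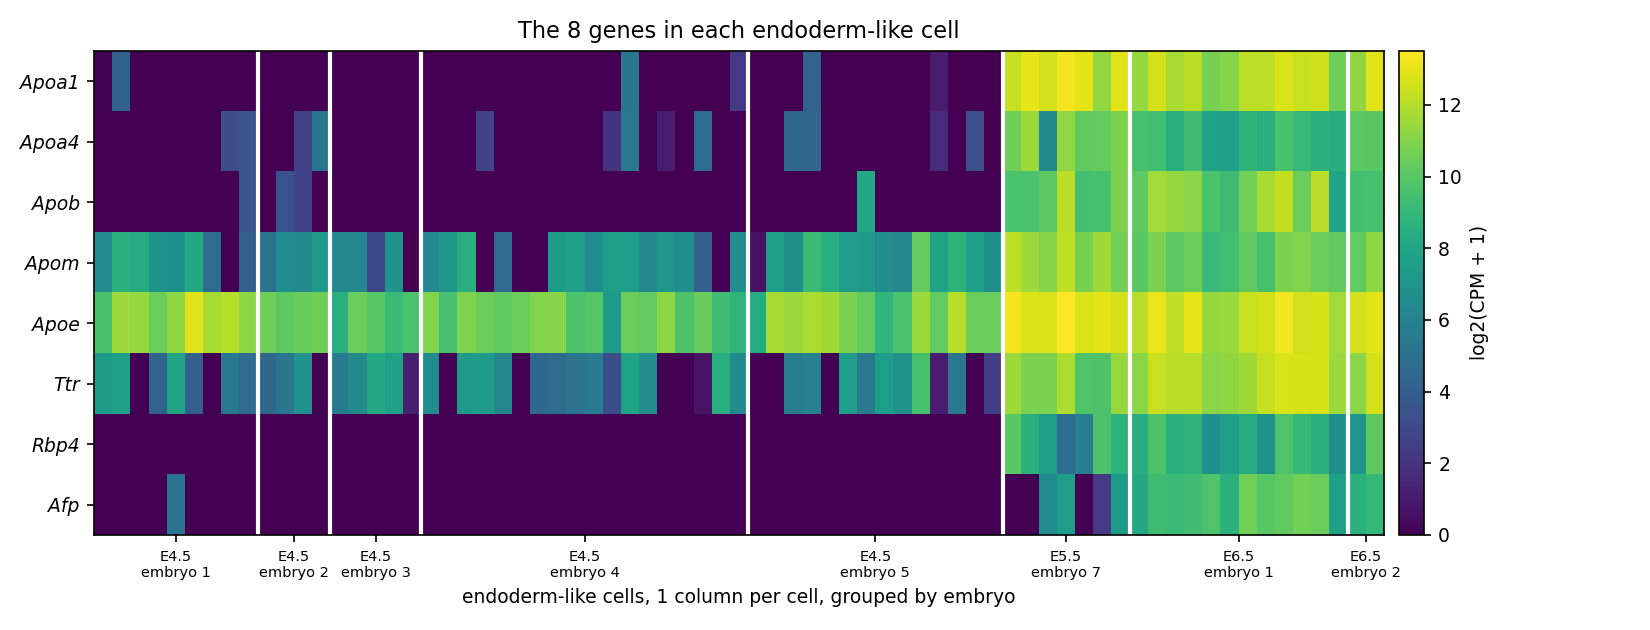
The log2(CPM + 1) level of each gene (rows, colour) in each endoderm-like cell (columns, grouped by embryo, white lines between embryos). Apom, Apoe and Ttr are present from E4.5, Apoa1, Apoa4, Apob and Rbp4 are high in all 7 cells of E5.5, and Afp is in 4 of those 7 and in all 14 cells of E6.5.

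Set on a scale per gene length (CPM divided by kilobases of exon, RPKM), the order of the genes moved with the stage. At E4.5 the endoderm-like cells held Apoe at a mean of 786 RPKM (414 to 1286 over 5 embryos), Apom at 136 (56.3 to 258) and Ttr at 75.1 (31.9 to 106), with the ranges of Apom and Ttr overlapping, and no other member above a mean of 2.18. At E5.5, with 1 embryo and so no spread, Apoa1 led at 5204 RPKM, before Apoe at 4016, Apom at 3240, Ttr at 1864, Apoa4 at 845, Rbp4 at 382, Apob at 104 and Afp at 16.8. At E6.5 Ttr (2575 to 3869 RPKM in the 2 embryos), Apoa1 (2829 to 3477) and Apoe (2904 to 3033) overlapped at the top, and Apom followed at 1308 to 1436. Apoa4 (278 to 607), Rbp4 (250 to 329), Afp (124 to 262) and Apob (51.9 to 174) came last, each overlapping the next. Apob, with 13934 exon bases the longest of the 8, had the lowest mean of them per length at E6.5, 113 RPKM.

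At E6.5 the genes were read in nearly all cells of all classes. In the other 69 cells of E6.5, 6 of the 8 genes were read in every cell, Apoa4 in 67 and Rbp4 in 66. The mean log2 level over the 2 embryos was 9.21 for Apoa1, 9.61 for Ttr and 6.56 for Afp, against 0.66, 0.27 and 0.23 in the other cells of E5.5, or 0.42, 0.033 and 0.050 without cell 24. The endoderm-like cells were still above the rest, by 2.31 for Ttr to 3.27 for Apoa4, and all 8 genes were higher in them in both embryos, as were 39.8% of 16831 genes. With the counts summed over cells before scaling, that held for 5 of the 8 genes. Cells 64 and 87 of embryo 1, both unnamed, had 5964500 and 6079032 reads and 38351 and 32366 CPM of the 8 genes with Ttr alone at 17926 and 20056 CPM. They are the cells with most reads of the genes outside the endoderm-like class, and they passed 10 CPM for 7 and 6 of the 10 endoderm markers.

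With the cells of both E6.5 embryos pooled, all 8 members averaged below their endoderm-like levels in the other classes. In the mesoderm-like cells the 8 genes averaged 8.91% (Apob) to 26% (Rbp4) of their mean CPM in the endoderm-like cells, with a median of 14%, and in the unnamed cells 14.9% (Apob) to 61.7% (Apoa4), with a median of 29.4%. Taken on medians over cells, the members ran from 7.37% to 20.1% in the mesoderm-like and from 16.1% to 24.3% in the unnamed cells, whose means a few cells raised. Dab2, Cubn and Amn, which make up the uptake machinery of the visceral endoderm, were at 15.3%, 11.5% and 14.6% in the mesoderm-like and at 24.6%, 13.8% and 15.8% in the unnamed cells. The whole list of 10 endoderm markers ran from 2.75% (Sox7) to 101% (Gata6) in the mesoderm-like cells, with a median of 29.2%, and from 13.8% to 34.3% in the unnamed cells, with a median of 23.5%. On medians over cells the markers ran from 0 to 175% (Pdgfra) in the mesoderm-like and from 0 to 22.4% in the unnamed cells. The 1 mesoderm-like cell of embryo 1 read 0 of 8 mesoderm markers, 4298 CPM of endoderm markers and 1.18% of its reads from the members. Most endoderm-like cells were of embryo 1 and most mesoderm-like cells of embryo 2, and values within an embryo differed from the pooled ones. Against the 2 endoderm-like cells of embryo 2, the members averaged 5.33% (Apoa4) to 22.9% (Apob) in its 23 mesoderm-like cells and 11.3% (Rbp4) to 33.7% (Afp) in its 22 unnamed cells. Against the 12 endoderm-like cells of embryo 1, they averaged 16.9% (Apob) to 117% (Apoa4) in its 23 unnamed cells, which include cells 64 and 87, and 19.7% to 28.2% on medians over cells. No class of E6.5 lacked the genes, so no background share could be taken from within the stage. Over the 69 cells, the sum of the 8 genes followed the summed endoderm markers with a Pearson r of 0.839 (Spearman 0.859) on values that share the cell's total. Conversely, 3 of the 10 genes that led the unnamed class, named after their values were seen, the trophoblast gene Elf5, the decidual gene Prl8a2 and the adult globin Hbb-bs, averaged 42, 19.2 and 54.9 CPM in the endoderm-like cells of E6.5 and were at 0 in those of E4.5 and E5.5. Another of the 10, Fabp3, was at 1045 CPM of the summed reads at E4.5, 203 CPM at E5.5 and 235 CPM in embryo 1 of E6.5, and the summed trophectoderm markers at E6.5 lay within their range at E4.5. The part of reads passed between cells or of mixed cells in these values was not tested.

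**Figure D3:**
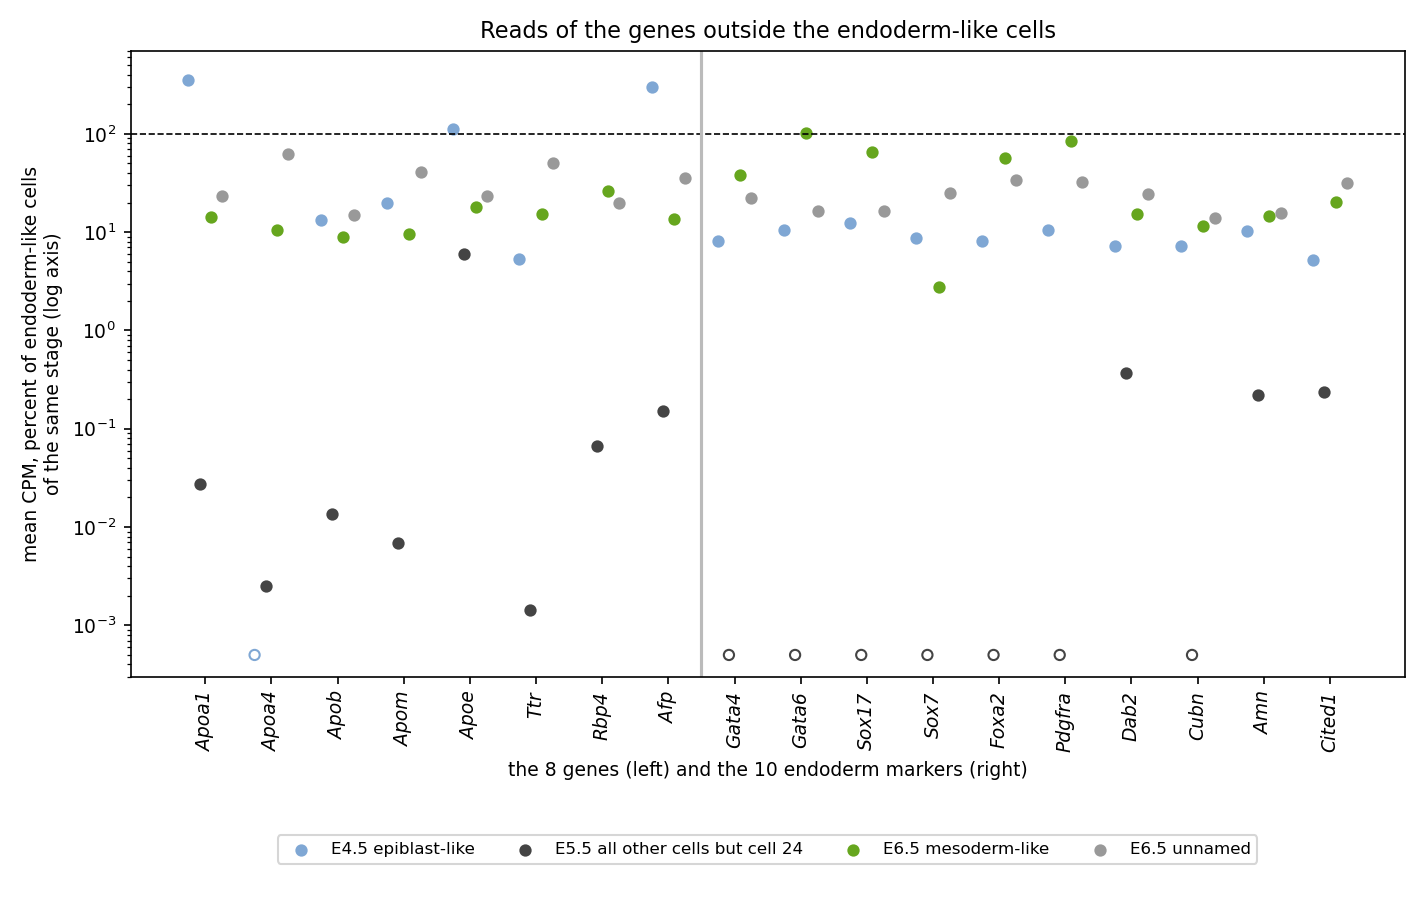
Mean CPM outside the endoderm-like cells as a percent of the endoderm-like mean of the same stage (log axis, dashed line at 100%), for the 8 genes and the 10 endoderm markers; open circles at the bottom stand for 0. At E5.5, with cell 24 left out, the members other than Apoe lie between 0.00145% and 0.151%, Apoe at 5.99% and the markers at no more than 0.371%, and at E6.5 the members lie between 8.91% and 61.7%. Rbp4 at E4.5 has no point because neither class had a read.

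The members varied together from cell to cell at E6.5. Over the 28 pairs of genes, the median Pearson r of log2 levels was 0.674 in the 14 endoderm-like cells of E6.5, with 27 pairs positive, from -0.102 for Apoa4 and Afp to 0.894 for Apoa1 and Apoe. In the 7 cells of E5.5 the median was 0.205, from -0.684 to 0.919. In the 50 cells of E4.5 it was 0.043 over the 21 pairs without Rbp4. In the 69 other cells of E6.5 all 28 pairs were positive with a median of 0.746. The sum of the members followed the summed endoderm markers in the endoderm-like cells of E6.5 (r = 0.873) and had almost no relation with the reads per cell (r = -0.083), while in the 69 other cells it had a relation with the reads per cell of r = 0.433 (Spearman 0.385). These are descriptions over cells of 1 or 2 embryos at E5.5 and E6.5, and values scaled to a cell's total are not independent.

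The stages were compared on reads summed over the endoderm-like cells of each embryo with at least 3 of them, which were 5 of E4.5, embryo 7 of E5.5 and embryo 1 of E6.5, with 1747123 to 28690630 reads. The spread was estimated from the E4.5 embryos, and the lone embryos of the later stages were assumed to vary like them. Each stage has its own label prefix, so stage and any batch that follows the prefix cannot be told apart. The fit (edgeR quasi-likelihood test, Benjamini-Hochberg over 13345 genes) gave log2 fold changes from E4.5 to E5.5 of 12.15 ± 0.73 (SE) for Apoa1, 8.87 ± 0.83 for Apoa4 and 7.57 ± 1.44 for Apob. Apom differed by 4.71 ± 0.53, Apoe by 2.53 ± 0.42, Ttr by 4.81 ± 0.43 and Afp by 7.39 ± 1.17. Rbp4, with 0 reads at E4.5 and 6718 at E5.5, was at least 10232-fold higher against a floor of 3 reads over the E4.5 cells. All 8 members passed an adjusted p of 0.05 in the higher direction, as 3.32% of the genes tested did (8.21% were lower), and since the members were selected on these levels nothing is read from that count. DESeq2, which gave no adjusted p for Apob, called 6 of the other 7, with Afp at an adjusted p of 0.287, and limma called 7 of 8, with Apoe at 0.118, the highest values of these genes over the alternatives. The median gene was lower by 1.18 on the log2 scale in this comparison, and the endoderm-like cells of E5.5 had a median of 4487 detected genes against 7044 at E4.5.

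From E4.5 to E6.5 the log2 fold changes were 11.33 ± 0.71 for Apoa1, 11.11 ± 1.22 for Afp, 8.08 ± 1.45 for Apob, 7.03 ± 0.80 for Apoa4, 5.62 ± 0.43 for Ttr and 3.16 ± 0.54 for Apom. Rbp4 was at least 8812-fold higher. Apoe, at 1.82 ± 0.44, had an adjusted p of 0.0565 by edgeR and ranged from 0.00141 to 0.561 over the alternatives, of which 9 of 22 were below 0.05, among them those without E4.5 embryo 1 (0.00972) or embryo 5 (0.0411). Thus 7 of 8 members passed in the higher direction, against 0.689% of genes higher and 0.48% lower, and again nothing is read from the count. DESeq2, again with no adjusted p for Apob, called 6 of 7 and limma 6 of 8, with the call of Afp lost by DESeq2 (adjusted p = 0.373) and that of Apom by limma (0.117), the highest values of these genes over the alternatives. The median gene moved by -0.10. With both E6.5 embryos in the fit all 8 members passed, and with E6.5 embryo 2 alone 6 passed, without Apob (edgeR adjusted p = 0.0528, highest of its alternatives 0.0613) and Apoe (0.0591).

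Between E5.5 and E6.5, 0 of the 8 members passed the edgeR test (1, Afp, at an unadjusted p below 0.05, and 0 by DESeq2 or limma), where E6.5 was higher for 3.33% of genes and lower for 0.195%. Afp had the widest difference, 3.72 ± 1.73 on the log2 scale (adjusted p = 0.287), and without E4.5 embryo 1, which alone held Afp reads among the E4.5 endoderm-like cells, the adjusted p was 0.0307 (0.00281 to 0.793 over the alternatives). Apoa4 differed by -1.85 ± 1.22, Apom by -1.55 ± 0.85, Apoa1 by -0.83 ± 0.95, Apoe by -0.71 ± 0.65 and Rbp4 by -0.46 ± 0.76. Ttr differed by 0.81 ± 0.68 and Apob by 0.51 ± 2.16. With 1 embryo on each side, the values do not show that the levels were alike.

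**Figure D4:**
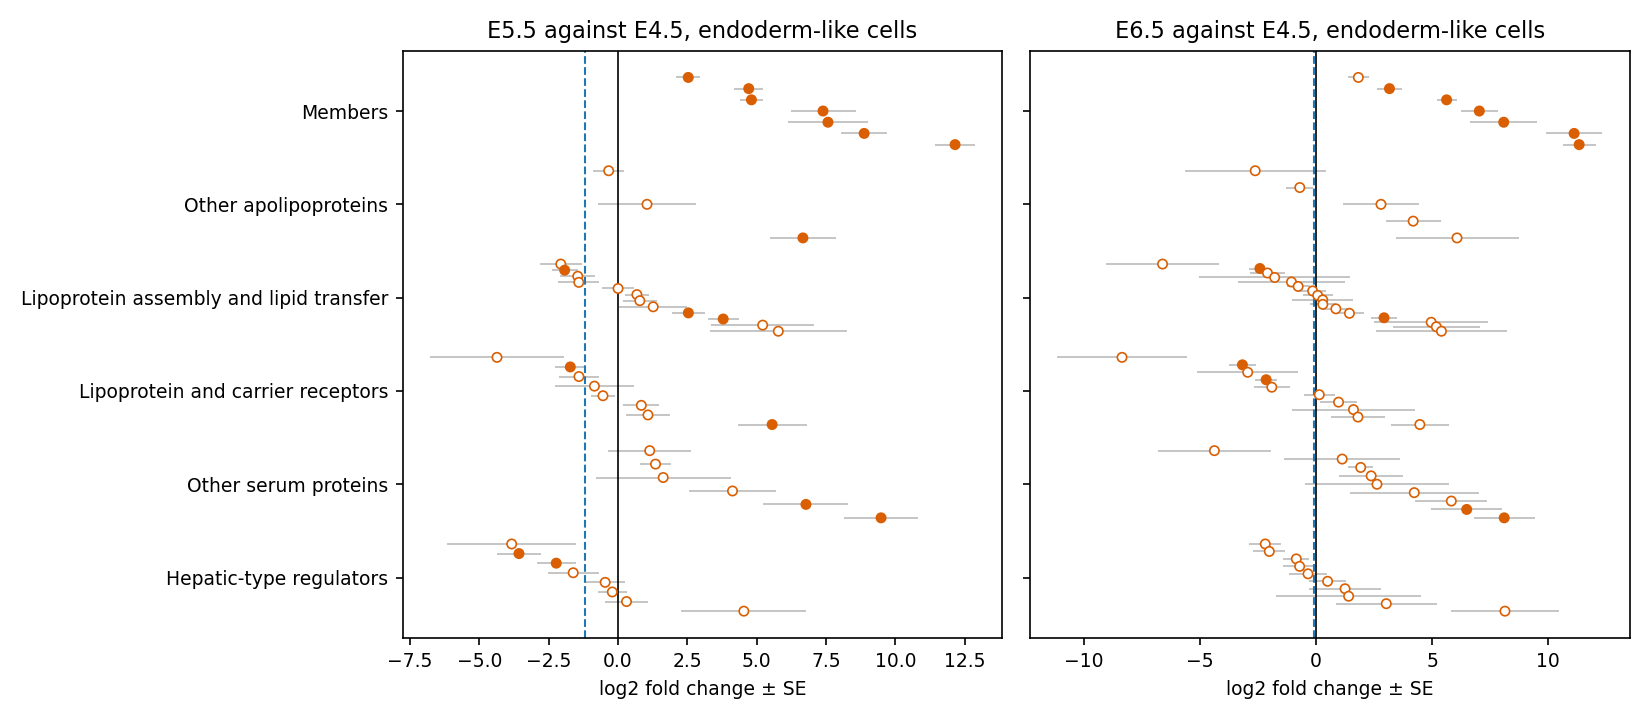
Log2 fold changes ± SE in endoderm-like cells from E4.5 to E5.5 (left) and to E6.5 (right) for the members and the genes of 5 related lists, 1 point per gene; filled points passed an adjusted p of 0.05, the dashed line is the median of all genes, and genes with no read in 1 stage are left out. The members plotted lie to the right of 0 in both panels, and the genes of the lists lie on both sides.

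Of 18 genes for lipoprotein assembly and lipid transfer, 17 were tested, and from E4.5 to E6.5 1 was higher, 1 was lower and 15 did not pass, where 0.689% of all genes tested were higher and 0.48% lower. The median log2 fold change of the list was 0.28, against -0.10 over all genes tested, and from E4.5 to E5.5 it was 0.34 with unread genes at their bound (0.00 as fitted), against -1.18. Mttp, the transfer protein that loads lipid on to Apob, was at 12.6 to 30.03 CPM over the E4.5 embryos, 282 CPM at E5.5 and 134 to 183 CPM in the 2 E6.5 embryos. It rose by 2.93 ± 0.57 on the log2 scale from E4.5 to E6.5 (edgeR adjusted p = 0.0129), with 20 of 22 alternatives passing. The call was lost with E6.5 embryo 2 alone (adjusted p = 0.0709) and by limma (0.0722, the highest). P4hb, the protein disulfide isomerase that is the other subunit of that complex, was at 1752 to 2605 CPM at E4.5, 512 CPM at E5.5 and 431 to 561 CPM at E6.5, and fell by 2.42 ± 0.48 (adjusted p = 0.0145, at most 0.0751 over the alternatives). The 2 subunits of this complex moved in opposite directions. From E4.5 to E5.5, where 3.32% of all genes were higher and 8.21% lower, Mttp (3.79) and Soat2 (2.54), which esterifies cholesterol, were higher, P4hb (-1.92) was lower, and Pltp, a phospholipid transfer protein, had 933 reads at E4.5 and 0 at E5.5. Pltp did not pass without E4.5 embryo 1, 2 or 4, with an adjusted p of up to 0.277 over the alternatives. Over the alternatives the adjusted p was at most 0.0339 for Mttp, 0.137 for Soat2 and 0.0620 for P4hb. Pltp kept its call in 16 of 21 alternatives. The genes called from E4.5 to E5.5 are named here after their values were seen, and the calls rest on 1 embryo of E5.5 that was assumed to vary like those of E4.5.

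The receptors called at E6.5 were lower. Of 10 genes for lipoprotein and carrier receptors, 0 passed as higher and 2 as lower between E4.5 and E6.5, where 0.48% of all genes tested were lower. The median log2 fold change of the list was -0.88 against -0.10 over all genes, and from E4.5 to E5.5 it was -1.13 against -1.18. Lrp2 (megalin), the large endocytic receptor of the visceral endoderm, was at 1410 to 3378 CPM at E4.5, 659 CPM at E5.5 and 102 to 285 CPM at E6.5, and fell by 3.17 ± 0.60 (edgeR adjusted p = 0.0101). Its chaperone Lrpap1 was at 1731 to 2675, 1186 and 337 to 462 CPM and fell by 2.15 ± 0.48 (adjusted p = 0.0369). The call of Lrpap1 was lost without E4.5 embryo 2 (adjusted p = 0.0543), 3 (0.0693) or 4 (0.0700) and was at most 0.172 over the alternatives, where Lrp2 kept an adjusted p of at most 0.0247. From E4.5 to E5.5, Lrp2 was lower by edgeR, a call kept in 14 of 21 alternatives. That call was lost, among others, without E4.5 embryo 2, 3 or 5. Lrp1, which also takes up Apoe-bearing particles, was higher (5.56), a call kept in 19 of 21 alternatives and lost by limma. The retinol receptor Stra6 had 694 reads at E4.5 and 0 at E5.5, and its call was lost without E4.5 embryo 1 (adjusted p = 0.145, at most 0.188 over the alternatives). Stra6 kept its call in 17 of 21 alternatives. The direction of Lrp1 turned with a stricter filter on cells.

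Other secreted proteins of the visceral endoderm gave 3 higher and 0 lower of 13 tested at E6.5 against E4.5, from a list of 19, where 0.689% of all genes tested were higher and 0.48% lower. The median log2 fold change of the list was 2.62 against -0.10 over all genes, and from E4.5 to E5.5 it was 1.35 with unread genes at their bound and 1.14 as fitted, against -1.18. Trf (transferrin), the iron carrier, was at 0 to 0.244 CPM over the E4.5 embryos, 65 CPM at E5.5 and 14.5 to 29.5 CPM at E6.5, a log2 fold change of 8.10 ± 1.31 (edgeR adjusted p = 0.00331). Without the E5.5 embryo the adjusted p was 0.0579, and the highest over the alternatives was 0.361, by DESeq2. The fibrinogen chain Fgg had 0 reads in the endoderm-like cells of E4.5, 3 at E5.5 and 36.6 to 44.3 CPM at E6.5, at least 730-fold higher than at E4.5 (adjusted p = 0.0244). Trf was also read outside the endoderm, with 24.3 to 47.5 CPM in the other cells of E6.5. It was called higher from E4.5 to E5.5 as well.

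Other apolipoproteins gave 0 calls by edgeR at E6.5 against E4.5 among 8 tested of 11 (4 at an unadjusted p below 0.05, 0 by DESeq2 and 3 by limma), and 1 at E5.5 against E4.5, Apoa2 (6.67 ± 1.2, edgeR adjusted p = 0.00250, lost with a stricter filter on cells at 0.478 and otherwise from 3.51e-06 to 0.0470 over 20 alternatives). Of all genes tested, 0.689% were higher and 0.48% lower at E6.5, and 3.32% higher and 8.21% lower at E5.5. The median log2 fold change of the list was 3.49 at E6.5 against -0.10 over all genes, and at E5.5 0.46 with unread genes at their bound and -0.17 as fitted, against -1.18. Apoa2 was at 0 to 8.61 CPM at E4.5, 162 CPM at E5.5 and 34.2 to 89.4 CPM at E6.5 in the endoderm-like cells. The neighbours of the members were read too. Beside Apoa1 and Apoa4, Apoc3 was at 5.74 CPM on average at E4.5, 9.86 CPM at E5.5 and 39.3 to 53.9 CPM at E6.5, and Apoa5 had 0 reads at E4.5 and E5.5 and 13.5 to 24.2 CPM at E6.5. Beside Apoe, Apoc1 was at 200 CPM on average at E4.5, 141 CPM at E5.5 and 125 to 130 CPM at E6.5, Apoc4 was at no more than 9.66 CPM and Apoc2 at no more than 0.369 CPM at any stage. Beside Afp, Alb and Afm stayed below 1 CPM in the endoderm-like cells of all 3 stages.

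Of 14 transcription factors of the hepatic type, 11 were tested and 0 passed from E4.5 to E6.5, with a median log2 fold change of 0.50 against -0.10 over all genes. In that comparison 0.689% of all genes tested were higher and 0.48% lower. At an unadjusted p below 0.05 the count was 4, and DESeq2 and limma called 2 each. From E4.5 to E5.5, 1 was higher and 2 were lower, with a median of -0.62 with unread genes at their bound and -1.62 as fitted, against 3.32% of all genes higher, 8.21% lower and a median of -1.18. Foxa1 had 0 reads at E4.5 and 32.2 CPM at E5.5, at least 641-fold higher, and was at 0.805 to 2.83 CPM at E6.5. Its call, from 1 embryo of E5.5, was lost with a stricter filter on cells (adjusted p = 0.293), 1 of 21 alternatives. Gata6 differed by -2.23, with the call kept in 14 of 21 alternatives and lost, among others, without E4.5 embryo 2, 3 or 4. Gata4, Gata6, Sox17 and Foxa2 of this list were also among the markers that named the endoderm-like class. Between E5.5 and E6.5, 0 of the 59 list genes tested passed by edgeR, with 5 at an unadjusted p below 0.05, 1 by DESeq2 and 8 by limma.

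The genes most like the members across all classes were found by correlating each of 11671 genes with the mean scaled level of the 8 over 17 embryo-by-class sums. The 5 highest were Nrk (Pearson r = 0.946), Spp2 (0.945), Sgce (0.934), Slc2a2, the glucose transporter of liver (0.931), and Sec14l2 (0.930). All but Sec14l2 had 0 CPM on average in the E4.5 endoderm-like cells. Against the same mean, which contains them, the members ran from 0.573 for Apoe to 0.955 for Apob, with Apoe the one that follows the others least.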

How the data were processed

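Single-cell RNA libraries (Smart-seq2) of 264 mouse embryo cells were analysed from a table of counts without normalization that the authors deposited. The submitters' processing notes name HISAT2 2.1.0, Trim Galore 0.4.5, featureCounts and GRCm38, and the annotation used for counting is not given in the sources used here. Symbols were found for 21907 of 22084 identifiers through GENCODE. Bisulfite libraries were not used here.

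The members and lists were chosen with earlier results of these data known. Cells were clustered per stage with scanpy 1.11.5 (2000 variable genes, 20 components, resolution 0.5), leaving out the members and the list genes other than Gata4, Gata6, Sox17 and Foxa2. Doublets were not called. Counts summed per embryo were tested with edgeR 4.0.16 (TMM, filterByExpr, quasi-likelihood) at an adjusted p of 0.05. Embryos, not cells, were the replicates. Alternatives included DESeq2 1.42.0, limma 3.58.1 on log2(CPM + 1), other filters, a marker gate (10 CPM of 5 of 10 endoderm markers) and leaving out each embryo. The looser filter (10000 reads and 1000 genes) kept the same endoderm-like cells and repeats the main fit. Leaving E6.5 embryo 2 out of the fit with at least 2 cells also repeats it. Comparing only 2 stages equals leaving out the lone embryo of the remaining stage. Counts of alternatives include these repeats. The fit was tested on simulated data. Genes were named by rule: the members, up to 4 called genes per list by fold change, cluster neighbours and the 5 most alike genes. Some called list genes are counted but not reported here. RPKM used the summed exon length per gene.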

Additional observations from a re-analysis of the deposited data

Results flagged for a closer look

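In 13 sets of 5 E4.5 embryos, 3 held 1 embryo far from the other 4. All 3 have 4 embryos at 0, and a gene read in 1 embryo of 5 always meets this rule, so the usual rate of chance flags does not apply. The log2 level of Afp was 0.574 in the endoderm-like cells of embryo 1 and 0 in the others. The level of Apob was 1.08 and that of Afp 1.44 in the epiblast-like cells of embryo 5, with 0 in the other 4 embryos. Each of the 3 values rests on reads in 1 cell.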

How the results depend on the processing

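From E4.5 to E6.5, 92 genes were higher and 64 lower. The marker gate gave 577 and 357, limma 697 and 131, embryos with at least 2 cells 279 and 241, and DESeq2 299 lower. Without 1 embryo the counts ran from 73 to 109 and from 55 to 76, with 6 to 8 members higher. From E4.5 to E5.5 (443 higher, 1096 lower), the gate gave 687 and 1697, limma 279 higher and DESeq2 2710 lower, and leaving out 1 embryo 378 to 481 and 917 to 1145, with 8 members each time. From E5.5 to E6.5 (444 higher, 26 lower), DESeq2 gave 1472 and 216, the gate 1339 and 289, limma 902 and 117, at least 2 cells 852 and 151, and the stricter filter 882 higher. Using only the E4.5 embryos of label prefix P1 or of P2 gave 76 and 17 lower, and leaving out 1 embryo 313 to 464 higher and 11 to 29 lower (44 with E6.5 embryo 2 alone). In that comparison 0 to 1 member was higher without 1 embryo, 1 (Afp) with only P1 or only P2, and 1 member (Apoe) lower by the gate. The gate took 30 cells of E6.5 embryo 1 and 39 of embryo 2, against 12 and 2 by cluster. At that stage its sums thus hold many cells of the other classes. These changes follow other samples, cells or tests, and their cause was not tested.

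Same-numbered embryos did not deviate together (r of -0.0011 and -0.0053), so the numbers pair nothing. A replicate block by embryo number, together with at least 2 cells per embryo, gave 166 genes higher and 244 lower from E4.5 to E6.5, with 7 of 8 members higher. Without the lower minimum of cells the block left 0 residual degrees of freedom. Embryo 7 of E5.5 has no partner, so no paired analysis was possible because numbers are not shared in its comparisons. Leaving out the only embryo of a stage, and using 2 stages of 1 embryo each, could not be fitted.

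Some directions turned. Apob between E5.5 and E6.5 was -1.20 by the gate, -0.13 with at least 2 cells and -1.39 with E6.5 embryo 2 alone, Rbp4 was 1.11 with the stricter filter, and Lrp1 from E4.5 to E5.5 was -7.35 with that filter. Of the fold changes of members, with repeated fits counted, 473 kept direction and call, 13 gained and 6 lost a call and 4 turned. Of those of the list genes called in the main fit, 379 kept both, 47 lost the call and 1 turned. With counts summed over cells, 5 members were higher in the endoderm-like cells of both E6.5 embryos. Thinning moved the median share of cells with a read from 18% to 6% in the E4.5 endoderm-like cells and from 100% to 95.7% in the other E6.5 cells. The stricter filter, with 4 cells left, moved the median correlation at E5.5 to 0.467. The added alternatives with at least 2 cells, with cell 24 as endoderm-like and with E6.5 classes compared within an embryo were chosen after seeing the data.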
